A study of Homo sapiens with 16 samples.

Results

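The partner receptors of HER2, the feedback inhibitor ERRFI1 and the ligands of the EGF family were followed in SUM-225 cells exposed to 1 µM CP724,714, a small molecule that inhibits the kinase of HER2. All probes whose symbol was EGFR, ERBB3, ERBB4, ERRFI1, AREG, EREG, HBEGF, TGFA, BTC or NRG1 were taken, which gave 18 probes of 10 genes out of 24526 probes with 18631 symbols. SUM-225 is a line derived from breast cancer in which the gene for HER2 (ERBB2) is amplified and over expressed. CP724,714 was the only agent added. RNA came from 16 cultures kept side by side and taken at intervals of 3 h, the last at 45 h, with 1 bead array for each time. The groups compared were the 0 h array, on which treatment had not yet run, the 3 arrays of 3-9 h, and the 4 arrays each of 12-21 h, 24-33 h and 36-45 h. The labels name a medium with fetal bovine serum, insulin and hydrocortisone, whereas the study's methods describe these cells as grown without serum, EGF or insulin, so that the ligands supplied by the medium are not settled. No culture without inhibitor was followed over time, so the effects of the inhibitor, of handling and of hours in culture cannot be told apart. In a population of cells, fewer cells making an RNA and less of that RNA in each cell cannot be told apart either.

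Receptors of this family work in pairs. A ligand that binds EGFR, ERBB3 or ERBB4 lets the receptor pair with another, and HER2, which has no known ligand, is the preferred partner. ERBB3 has little kinase activity of its own and, once phosphorylated by HER2, recruits PI3 kinase. Amphiregulin (AREG), TGF-alpha (TGFA) and EGF bind EGFR, while epiregulin (EREG), heparin-binding EGF-like growth factor (HBEGF) and betacellulin (BTC) bind EGFR and ERBB4, and the neuregulins such as NRG1 bind ERBB3 and ERBB4. ERRFI1, also called MIG6, binds the kinase domains of these receptors and inhibits them, and its transcription is known to rise when they are active.

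The promoters of 4 members are shown as a description, and whether any motif bears on the courses was not tested. ERRFI1 and HBEGF were the members with the largest early fall, and AREG and BTC are neighbouring ligand genes of which only the second was detected. Each line holds the 250 bases before the RefSeq start of the gene in GRCh38.p14, read 5′ to 3′ on the strand of the gene, at chr1:8026310-8026559 (minus strand) for ERRFI1, chr5:140346604-140346853 (minus strand) for HBEGF, chr4:74444886-74445135 (plus strand) for AREG and chr4:74794524-74794773 (minus strand) for BTC. Capitals mark a match to 1 of the motifs searched.
ERRFI1: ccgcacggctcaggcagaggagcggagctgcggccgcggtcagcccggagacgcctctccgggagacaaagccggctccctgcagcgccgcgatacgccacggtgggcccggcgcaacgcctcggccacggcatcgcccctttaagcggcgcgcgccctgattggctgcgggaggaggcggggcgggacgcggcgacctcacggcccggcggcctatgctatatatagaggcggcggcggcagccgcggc
HBEGF: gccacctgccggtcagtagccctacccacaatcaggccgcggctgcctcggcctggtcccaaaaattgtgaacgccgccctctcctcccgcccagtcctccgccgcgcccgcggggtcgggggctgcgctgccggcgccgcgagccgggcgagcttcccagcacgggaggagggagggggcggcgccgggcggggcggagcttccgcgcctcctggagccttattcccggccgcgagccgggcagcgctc
AREG: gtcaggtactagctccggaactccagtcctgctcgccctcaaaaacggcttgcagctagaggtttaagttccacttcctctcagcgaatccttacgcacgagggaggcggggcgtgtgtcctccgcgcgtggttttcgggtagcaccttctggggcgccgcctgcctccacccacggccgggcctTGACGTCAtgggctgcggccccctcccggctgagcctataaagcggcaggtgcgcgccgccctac
BTC: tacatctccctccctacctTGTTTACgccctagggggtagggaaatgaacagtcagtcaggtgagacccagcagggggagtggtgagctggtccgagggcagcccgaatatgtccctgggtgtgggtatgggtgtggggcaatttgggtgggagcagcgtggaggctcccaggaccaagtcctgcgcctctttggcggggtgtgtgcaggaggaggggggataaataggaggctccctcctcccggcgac

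The motifs searched on both strands were the cyclic AMP response element TGACGTCA, the AP-1 site TGACTCA, the FOXO site GTAAACA and the CArG box of serum response factor. None of these motifs overlapped in the 4 windows shown. The AREG window held the cyclic AMP response element from 65 to 58 bases before the start, a motif found in 1.65% of all 35116 windows of this length. The BTC window held the FOXO site from 231 to 225 bases before the start, a motif found in 2.98% of windows. The windows of ERRFI1 and HBEGF held none of the motifs, which is a statement on these letters in these windows only. Of the 10 member genes, 8 had a window in the RefSeq table, and among the others an EGFR window had the AP-1 site, which 4.2% of all windows held, at 232 and at 136 bases before the start. The CArG box, found in 1.16% of windows, was in no member window.

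Of the 18 member probes, 11 probes of 8 genes were detected well enough to be tested, and each of these was detected on all 16 arrays. A probe counted as detected on an array when its detection p-value, which compares its signal with negative control beads, was under 0.05, and 16110 probes in all were tested because they were detected on at least 3 arrays. The single AREG probe (ILMN_1804421) was detected on no array, with signal intensities of 141 to 181. Of the 4 NRG1 probes, ILMN_1811954 was detected on 1 array, that of 6 h, with signals of 184 to 237 over the course, and the others were detected on 0 arrays. Of the 4 EGFR probes, ILMN_1728858 (158 to 205) and ILMN_1755535 (145 to 216) were detected on 0 arrays. The lowest signal that counted as detected was 210 to 287 over the arrays, so the RNA that these 7 probes bind is bounded by that level and not shown to be absent. As a check of the label, all 9 marker genes of mammary epithelium and the HER2 amplicon were detected. Of the markers of blood cells, fibroblasts and endothelium reported here, PECAM1 was detected on 16 arrays and COL1A1 on 5, CD3E and CDH5 were detected on 1 each, and PTPRC, COL3A1 and PDGFRB were detected on 0. The brightest ERBB2 probe had signals of 68945 to 72059 where the array maximum was 71727 to 74152, so its course can barely be read.

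**Figure D1:**
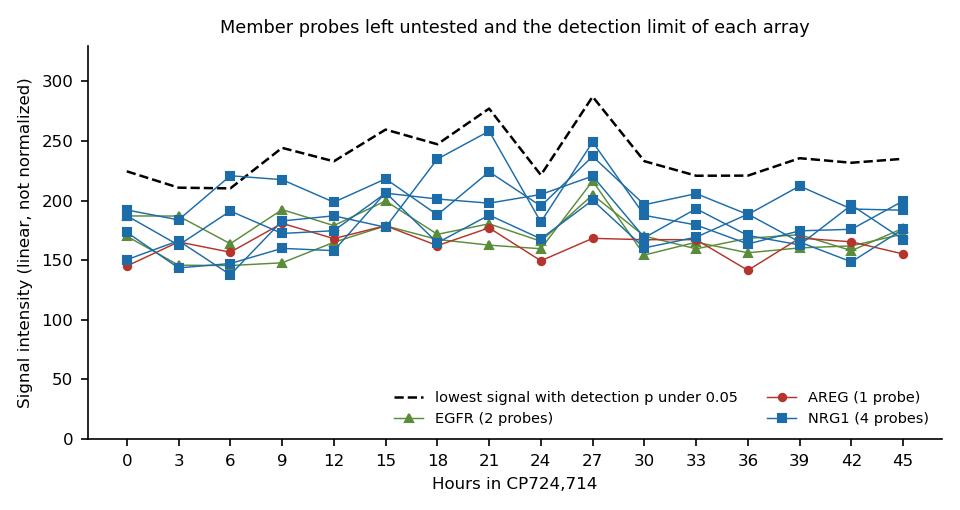
Linear signal intensity (y axis, not normalized) of the 7 member probes left untested against hours in CP724,714 (x axis), with each point 1 array and the dashed line the lowest signal that counted as detected on that array. A single point, NRG1 at 6 h, lies above the line.

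Each tested probe was described by its background-corrected, quantile-normalized log2 signal and by limma fits over all 16 arrays, with p-values adjusted over the 16110 probes tested. The linear change is the straight-line part of a cubic course, expressed as log2 units over 45 h with its SE. The window differences compare the mean log2 signals of 0 h, 3-9 h, 12-21 h, 24-33 h and 36-45 h. Because no time had a replicate, every error came from the scatter around the fitted course or window, and the 0 h array was assumed to vary like the others. Levels of different probes were not compared, since probes differ in brightness for the same amount of RNA.

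Of the 11 tested member probes, 5 depended on time in the F-test of the cubic course, against 51.3% of all tested probes. These were 1 probe each of BTC, EGFR, ERBB3, ERBB4 and TGFA. A linear trend was found for 4 of the 11 (BTC, EGFR, ERBB3 and TGFA), against 47.7% of all probes. All 4 rose, against 26.0% of all probes, and 0 fell, against 21.7%. At an unadjusted p under 0.05 a linear trend in either direction was found for 5 of the 11. Under some alternatives a linear fall was called for HBEGF (6 alternatives, adjusted p = 0.00928 to 0.0471), ERBB4 (array weights, adjusted p = 0.0439, or without 45 h, 0.0411) and ERRFI1 (without 3 h, adjusted p = 0.0381). The median linear change was 0.23 for the 11 probes and 0.05 for all tested probes. Between 0 h and 3-9 h, 3 of the 11 changed against 2.33% of all probes. ERBB3 ILMN_1751346 rose, against 1.14% of all probes, and ERRFI1 and HBEGF fell, against 1.19%. At an unadjusted p under 0.05, 7 of the 11 differed in this step, and the share of all probes at that level was not counted. Between 3-9 h and 12-21 h, 3 of the 11 changed against 27.7% of all probes. ERRFI1 and TGFA rose, against 14.8%, and another ERBB3 probe, ILMN_1737993, fell, against 12.9%. Between 12-21 h and 24-33 h, 4 of the 11 changed against 9.30% of all probes. All 4 rose (BTC, EGFR and both of the brighter ERBB3 probes), against 5.20%, and 0 fell in limma, against 4.11%, with the same number of 4 past an unadjusted p under 0.05. Between 24-33 h and 36-45 h, 0 of the 11 were past the threshold of limma, against 4.01% of all probes (3.11% lower), and 1 was past an unadjusted p under 0.05. The shares of the F-test, the linear trend and the step to 12-21 h lay near those of all probes and are not a result about these genes.

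**Figure D2:**
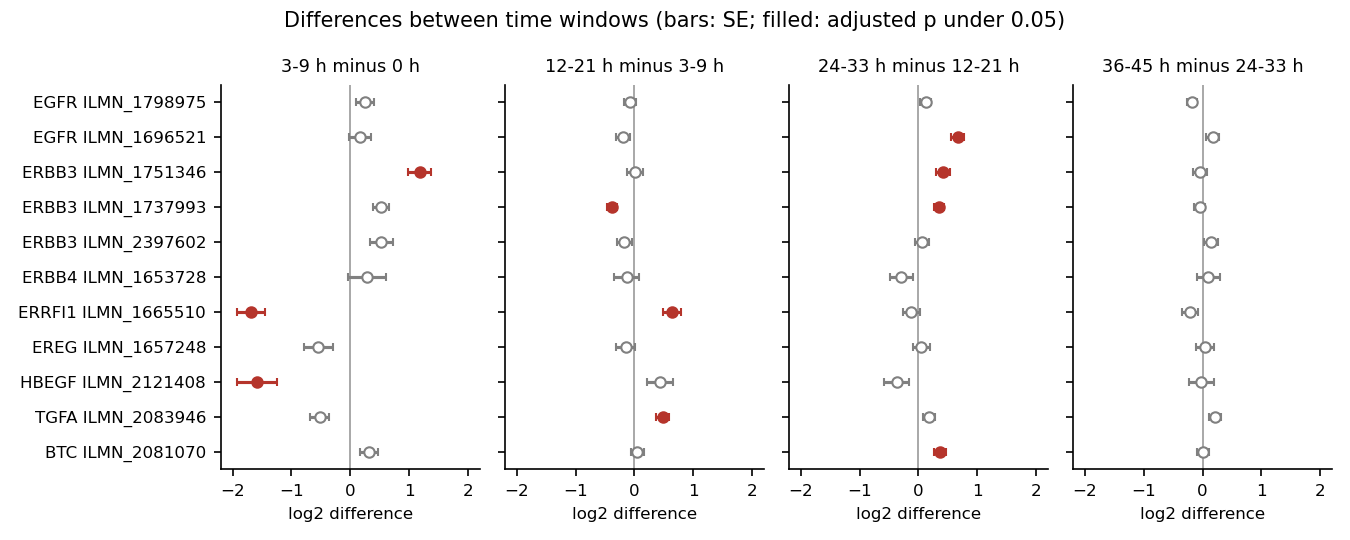
Difference in mean log2 signal between successive time windows (x axis, log2 units) for the 11 tested member probes (rows), with bars giving the SE of the limma fit and filled points an adjusted p under 0.05. The largest differences are those from 0 h to 3-9 h, where ERRFI1 (-1.69) and HBEGF (-1.58) lie to the left and ERBB3 ILMN_1751346 (1.18) to the right.

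Of the receptors, ERBB3 had the largest early rise. The brightest ERBB3 probe (ILMN_1751346) had log2 signals of 12.35 at 0 h, 13.03, 13.77 and 13.79 at 3, 6 and 9 h, 13.45, 13.58, 13.57 and 13.56 from 12 to 21 h, 13.89, 13.95, 13.95 and 14.05 from 24 to 33 h, and 13.92, 14.01, 13.95 and 13.75 from 36 to 45 h. The 0 h array was below every later array, the 3 h array was the next lowest, and the arrays from 24 to 42 h were the highest. From 0 h to 3-9 h the probe rose by 1.18 ± 0.19 log2 units, or 2.27-fold (limma, adjusted p = 0.00146), and 75 of the 16110 probes had a higher difference. The linear change was 0.98 ± 0.17 (adjusted p = 9.62e-05). The terms beyond the straight line were also past the threshold (adjusted p = 0.0284), as in 19.3% of all probes and in this 1 of the 11 member probes. Without the 0 h array the linear change was 0.62 (adjusted p = 0.00206). With median scaling in place of quantile normalization the F-test of this probe was not past the threshold (adjusted p = 0.0798). Among the markers of this cell line, all 3 probes of GRB7, an adaptor encoded beside ERBB2, also rose from 0 h to 3-9 h, by 0.58 to 1.30 log2 units. No other probe of the 14 on that list was called in this step, in which 1.14% of all probes were called higher. The GRB7 probes are of 1 gene on the same arrays and are not independent. That with 0.58, ILMN_2405254, had signals of up to 71265, near the array maximum of 71727 to 74152. The ERBB2 probes ILMN_1728761, ILMN_1717902 and ILMN_2352131, the brightest, had differences of 0.15, -0.06 and 0.01. STARD3, another gene of the amplicon, had -0.07 (adjusted p = 0.883). Over 45 h ILMN_1728761, with signals of 930 to 2307, had a linear change of 0.44 ± 0.09 (limma, adjusted p = 0.000418). The other ERBB2 probes had 0.06 ± 0.24 (ILMN_1717902) and 0.02 ± 0.04 (ILMN_2352131).

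The other ERBB3 probes had a smaller range. ILMN_1737993 had 10.10 at 0 h, 10.51, 10.71 and 10.64 from 3 to 9 h, 10.08, 10.37, 10.19 and 10.32 from 12 to 21 h, 10.60, 10.50, 10.63 and 10.64 from 24 to 33 h, and 10.63, 10.59, 10.54 and 10.42 from 36 to 45 h. Its values of 12-21 h lay below all values of both neighbouring windows. It fell by 0.38 ± 0.09 from 3-9 h to 12-21 h (adjusted p = 0.00521) and rose by 0.35 ± 0.09 from there to 24-33 h (adjusted p = 0.0133), and its first difference, 0.52 ± 0.14, was not past the threshold (adjusted p = 0.0617). That difference was past it under 5 alternatives, which were cyclic loess (adjusted p = 0.0455), detection on all arrays (0.049), array weights (0.00122) and leaving out the array of 3 h (0.0136) or 45 h (0.0402). The dimmest, ILMN_2397602, ranged from 8.26 at 0 h to 8.89 at 33 h and passed no test in the main fits. Its difference from 0 h to 3-9 h was 0.53 ± 0.20 (adjusted p = 0.172). With array weights, where 2997 of all tested probes were called, that difference was 0.49 (adjusted p = 0.0478). On all 3 probes the 0 h value, which is 1 array, was lower than every value from 3 to 9 h. The share of all probes with this order was not counted, and probes of 1 gene on the same arrays are not independent. From 12-21 h to 24-33 h the brightest probe rose by 0.42 ± 0.12 (adjusted p = 0.0278), a call that was lost without any 1 of the arrays of 12, 15, 18, 21, 27, 30 or 33 h (adjusted p = 0.0511 to 0.0843, with differences of 0.39 to 0.44) and under median scaling (0.55, adjusted p = 0.0977). That of ILMN_1737993 was lost without the 12 h array (0.30, adjusted p = 0.0548).

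The EGFR probes differed in course. ILMN_1798975, the brighter, stayed between 9.76 at 45 h and 10.21 at 24 h, a range of 1.36-fold, and passed no test, with a linear change of -0.05 ± 0.10 (adjusted p = 0.741). ILMN_1696521 had 7.97 at 0 h, 8.15, 8.27 and 8.03 from 3 to 9 h, 7.72, 8.02, 7.85 and 8.20 from 12 to 21 h, 8.63, 8.60, 8.64 and 8.60 from 24 to 33 h, and 8.74, 8.91, 8.79 and 8.69 from 36 to 45 h. All 8 arrays from 24 h on lay above all 8 arrays before it. The share of all probes with this order was not counted, and the values of 12-21 h and 24-33 h did not overlap in 19.4% of all probes. ILMN_1696521 rose by 0.67 ± 0.11 from 12-21 h to 24-33 h, or 1.59-fold (adjusted p = 0.000722), and by 0.98 ± 0.15 over 45 h (adjusted p = 2.75e-05). The step at 24 h is also one between sets of 4 consecutive arrays. With the set as a factor the linear change was 0.46 (limma, adjusted p = 0.755). The sequences of the probes are not given here, and whether the probes of a gene bind different transcripts was not tested.

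Whether the probes of a gene drifted apart was tested on the difference of their log2 signals against hours over the 16 arrays, for the 4 pairs that EGFR and ERBB3 gave, with 8 relations adjusted together. The EGFR difference (ILMN_1798975 minus ILMN_1696521) had a mean of 1.93 over the first 4 arrays and 1.18 over the last 4. Pearson r with hours was -0.84 (two-sided permutation p = 8e-05, adjusted p = 0.000373). Spearman rho was -0.83 with a permutation p of 0.00012 (adjusted p = 0.000373), and r was -0.84 without the arrays of 0 and 45 h (permutation p = 0.00026, n = 14). The EGFR probes were thus closer on the later arrays. The difference between ERBB3 probes ILMN_1751346 and ILMN_1737993 grew from 2.74 to 3.36, with r = 0.71 (permutation p = 0.00014, adjusted p = 0.000373) and rho = 0.72 (permutation p = 0.00207, adjusted p = 0.00414), and r was 0.69 without those arrays (permutation p = 0.00048, n = 14). That between ILMN_1751346 and ILMN_2397602 grew from 4.58 to 5.09, with r = 0.63 (permutation p = 0.0055, adjusted p = 0.00871) and rho = 0.66 (permutation p = 0.00653, adjusted p = 0.00871), and r was 0.58 without them (permutation p = 0.0225, n = 14). The difference between the dimmer ERBB3 probes had r = -0.03 (permutation p = 0.905, adjusted p = 0.905) and rho = -0.16 (permutation p = 0.541, adjusted p = 0.618), and r was 0.07 without them (permutation p = 0.815, n = 14). Arrays of 1 set of 4 are near each other in time, and permutation treats all 16 as exchangeable. The permutation p-values can therefore be too small, and a drift with time and a difference between sets cannot be told apart.

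ERBB4 was dim, with signals of 256 to 372. Its log2 signals were 7.10 at 0 h, 7.68, 7.14 and 7.34 from 3 to 9 h, 7.45, 7.36, 7.23 and 6.98 from 12 to 21 h, 7.35, 6.52, 7.03 and 6.96 from 24 to 33 h, and 6.68, 6.89, 7.26 and 7.45 from 36 to 45 h. The highest value was that of 3 h and the lowest that of 27 h, and the range of each window overlapped that of another. The course depended on time (adjusted p = 0.0285) with no linear trend (-0.35 ± 0.19, adjusted p = 0.141) and no window difference past the threshold. The F-test call was lost without any 1 of the arrays of 12, 27, 36 or 45 h (adjusted p = 0.052 to 0.072). It was also lost with no filter on dim probes (adjusted p = 0.0701), with a spline (0.097) and with 3 steps between sets (0.138).

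**Figure D3:**
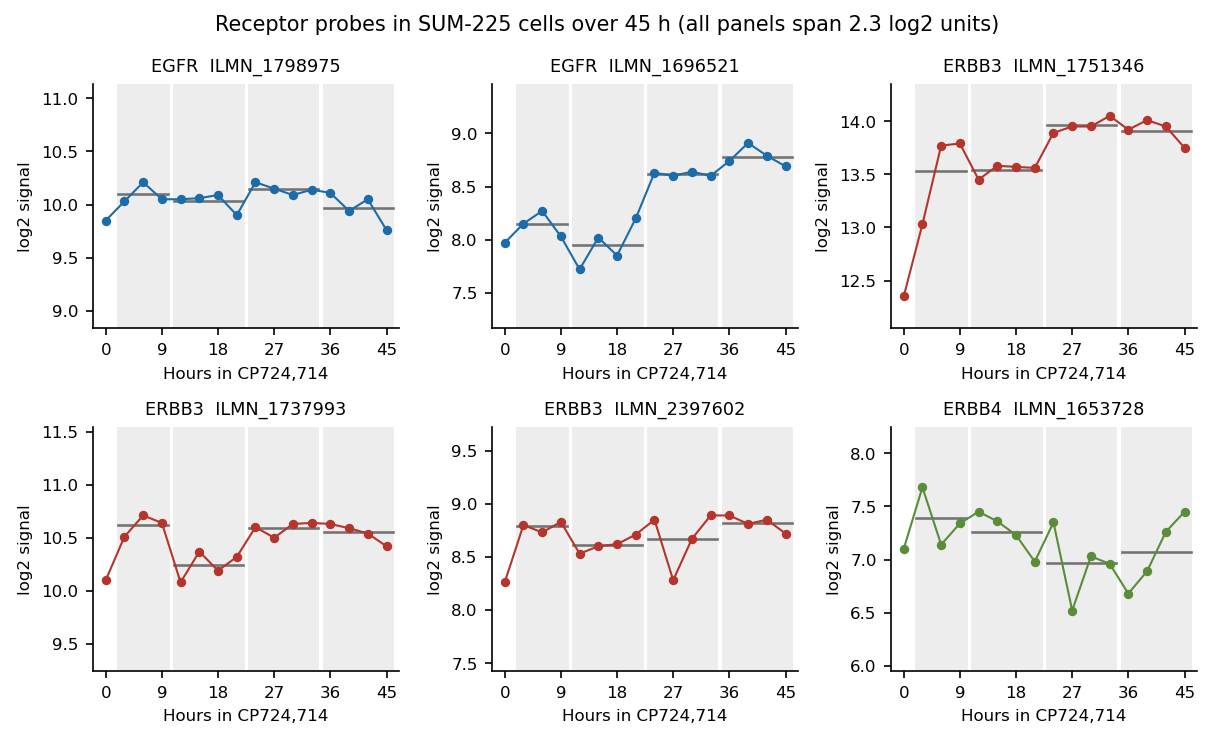
Log2 signal (y axis, each panel spanning 2.3 log2 units) of the 6 tested receptor probes against hours in CP724,714 (x axis). Points are single arrays, grey lines are window means and shading marks the windows after 0 h. ERBB3 ILMN_1751346 climbs from 12.35 at 0 h to 13.77 at 6 h, and EGFR ILMN_1696521 steps from 8.20 at 21 h to 8.63 at 24 h.

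ERRFI1, the inhibitor of these receptors, had the largest early fall among the members. Its probe (ILMN_1665510) had log2 signals of 13.06 at 0 h, 11.07, 11.46 and 11.58 at 3, 6 and 9 h, 12.56, 11.76, 11.85 and 11.85 from 12 to 21 h, 12.05, 11.84, 11.82 and 11.86 from 24 to 33 h, and 11.75, 11.82, 11.67 and 11.47 from 36 to 45 h. The 0 h array was the highest of all, the 3 h array the lowest, and the 12 h array the second highest. In signal intensity before any normalization, 8529 at 0 h stood against 1788 at 3 h, and 3070 on the 9 h array against 6251 on the 12 h array.

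From 0 h to 3-9 h ERRFI1 fell by 1.69 ± 0.24 log2 units, or 3.22-fold (limma, adjusted p = 0.000371), and 32 of the 16110 probes had a lower difference. It then rose by 0.64 ± 0.16, or 1.56-fold, to 12-21 h (adjusted p = 0.00489), and the values of these windows did not overlap. The call for this second movement held without the 12 h array (0.45, adjusted p = 0.00899) and was lost under median scaling (0.39, adjusted p = 0.133). The step from 0 to 3 h was 3.97-fold down, and 0.112% of all probes stepped lower. That from 9 to 12 h was 1.98-fold up, and 1.21% of all probes stepped higher. No later value came back to that of 0 h. The linear change was -0.33 ± 0.30 and the F-test of the cubic was not past the threshold (adjusted p = 0.411), although without the 0 h array it was (adjusted p = 0.0127).

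HBEGF, a membrane-anchored ligand whose transcription is known to follow growth factor signalling, moved with ERRFI1 at first. Its probe (ILMN_2121408) had log2 signals of 8.31 at 0 h, 6.96, 6.42 and 6.83 at 3, 6 and 9 h, 7.47, 7.50, 6.91 and 6.83 from 12 to 21 h, 7.18, 6.73, 6.65 and 6.65 from 24 to 33 h, and 6.77, 7.20, 6.80 and 6.37 from 36 to 45 h. The 0 h array was again above every other, and the values of all later windows overlapped. The fall from 0 h to 3-9 h was -1.58 ± 0.34, or 2.98-fold down (adjusted p = 0.0149), with 40 probes of 16110 lower. Without the 6 h array the difference was -1.42 and not past the threshold (adjusted p = 0.0578).

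The later values of HBEGF were close to the background. The signal went from 462 at 0 h through 252 at 3 h to 218 on the 6 h array. The highest detection p-values of its course were 0.0285, on that array, and 0.0292, on the last one. The size of the fall therefore depended on how background was removed, and it was -0.80 without background correction. The difference from 3-9 h to 12-21 h was 0.44 ± 0.22 (adjusted p = 0.153) and the linear change -0.73 ± 0.31 (adjusted p = 0.0596). With array weights, where 7509 of all tested probes were called in that step, the window difference was 0.63 (adjusted p = 0.00902). Within the 4 sets of 4 consecutive arrays, the last array was lower than the first in each set for both genes, by -1.48, -0.71, -0.19 and -0.28 log2 units for ERRFI1 and by -1.48, -0.64, -0.53 and -0.40 for HBEGF. The first of these differences is the early fall itself, and that of ERRFI1 in the next set starts from its high 12 h array. How many of all tested probes were lower in each set was not counted.

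Of the other ligands of EGFR, TGFA and BTC had a rising linear trend. TGFA (ILMN_2083946) had log2 signals of 9.64 at 0 h, 9.20, 8.93 and 9.23 from 3 to 9 h, 9.50, 9.73, 9.63 and 9.53 from 12 to 21 h, 9.68, 9.97, 9.75 and 9.71 from 24 to 33 h, and 9.99, 10.05, 10 and 9.93 from 36 to 45 h. The 3 lowest values were those of 3, 6 and 9 h, and the window of 36-45 h held 3 of the 4 highest. The difference from 0 h to 3-9 h, -0.52 ± 0.16, was not past the threshold (adjusted p = 0.0961) except with array weights (adjusted p = 0.0016) or without the 3 h array (adjusted p = 0.0324). TGFA rose by 0.48 ± 0.11 from 3-9 h to 12-21 h (adjusted p = 0.00225), and its linear change was 0.81 ± 0.15 (adjusted p = 0.000182). That value includes the low arrays of 3-9 h and is not the rise above 0 h. Compared with 0 h, TGFA was 0.29 higher at 45 h and at most 0.41 higher, at 39 h. With the set of 4 arrays as a factor the linear change was -0.71.

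BTC (ILMN_2081070) had 10.41 at 0 h, 10.77, 10.80 and 10.64 from 3 to 9 h, 10.67, 10.98, 10.83 and 10.66 from 12 to 21 h, 11.28, 10.94, 11.19 and 11.16 from 24 to 33 h, and 11.15, 10.97, 11.16 and 11.33 from 36 to 45 h. The 0 h array was the lowest, the 45 h array the highest, and neighbouring windows after 0 h overlapped. BTC rose by 0.68 ± 0.13 over 45 h (adjusted p = 0.000278) and by 0.36 ± 0.10 from 12-21 h to 24-33 h (adjusted p = 0.0276). The latter call was lost without any 1 of the arrays of 12, 21, 24, 30 or 33 h (adjusted p = 0.0692 to 0.0907) and under median scaling (0.44, adjusted p = 0.0724).

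EREG (ILMN_1657248) ranged from 7.0 at 15 h to 8.04 at 0 h and passed no test. Its 0 h value was the highest of the course, as for ERRFI1 and HBEGF, and the difference from 0 h to 3-9 h was -0.54 ± 0.25 (adjusted p = 0.288). In the genome EPGN, EREG, AREG and BTC are 4 consecutive protein-coding genes on chromosome 4. Of these neighbours EPGN, which encodes epigen, fell by 0.80 ± 0.13 over 45 h (adjusted p = 4.72e-05), EREG passed no test, AREG was not detected and BTC rose, so the neighbours did not share 1 course.

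**Figure D4:**
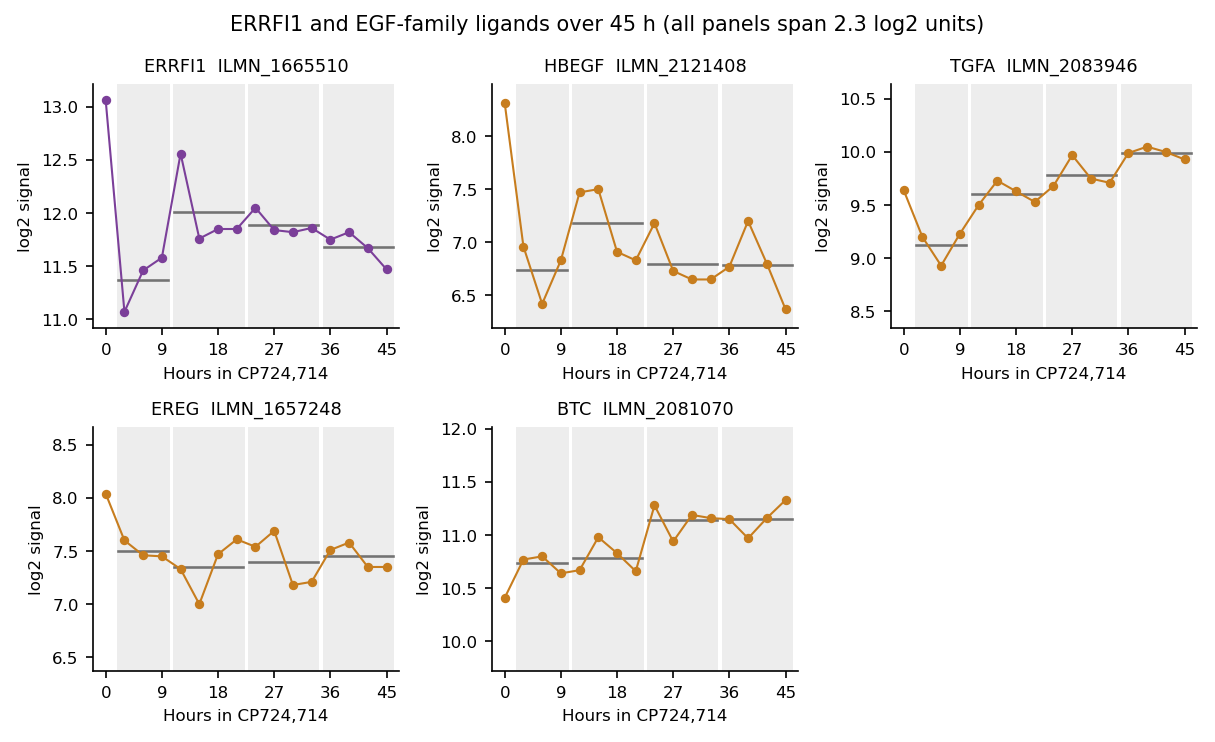
Log2 signal (y axis, each panel spanning 2.3 log2 units) of ERRFI1 and the 4 detected EGF-family ligands against hours in CP724,714 (x axis). Points are single arrays, grey lines are window means and shading marks the windows after 0 h. ERRFI1 and HBEGF are highest at 0 h (13.06 and 8.31), while TGFA and BTC are highest at 39 h (10.05) and 45 h (11.33).

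Set among all probes, the early differences of ERRFI1, HBEGF and ERBB3 ILMN_1751346 lay in the tails. The called differences of the next step (ERRFI1, TGFA and ERBB3 ILMN_1737993) lay nearer the middle. The values of 3-9 h and 12-21 h did not overlap for 4 of the 11 member probes (ERRFI1 and TGFA up, ERBB3 ILMN_1737993 and ILMN_2397602 down), against 31.3% of all probes. Those of 12-21 h and 24-33 h did not overlap for 3 (EGFR ILMN_1696521 and the ERBB3 probes ILMN_1737993 and ILMN_1751346, all up), against 19.4%. The windows after 0 h coincide with sets of 4 consecutive arrays that differ from each other over many probes, so window and set cannot be told apart. With the set as a factor beside a straight line 0 of the 11 member probes had a linear trend in limma (145 of all tested probes had one), with 3 past an unadjusted p under 0.05 (ERBB3 ILMN_1751346, ERRFI1 and HBEGF). TGFA then had a linear change of -0.71 (adjusted p = 0.60). ERBB3 had 1.98 (adjusted p = 0.287), EGFR 0.46 (adjusted p = 0.755) and BTC 0.43 (adjusted p = 0.756) in that fit. The sets were defined here by hour alone, and the labels name no batch. The early differences are between 0 h and 3-9 h, which fall in 1 set so defined. Whether the 0 h array was processed together with those of 3-9 h is not given.

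**Figure D5:**
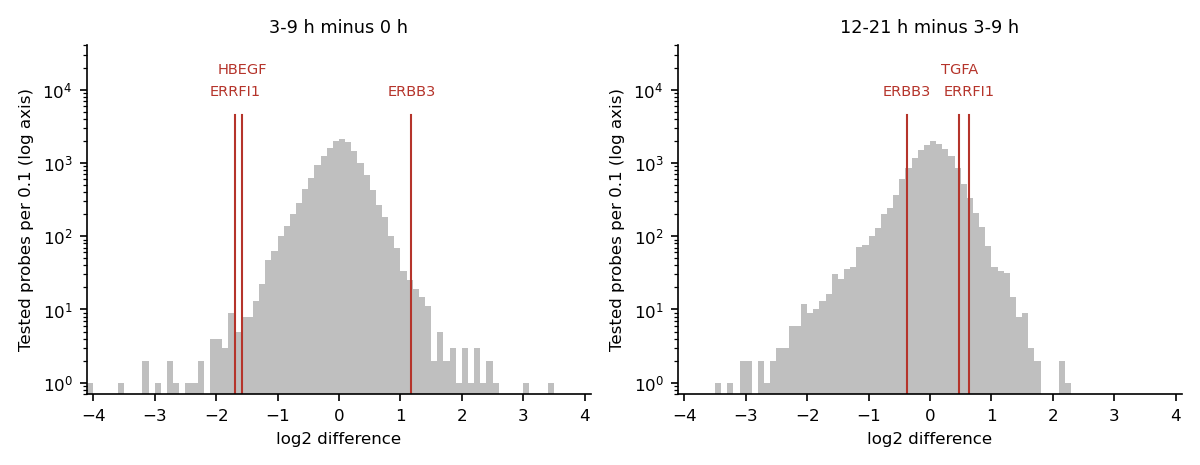
Number of tested probes (y axis, log scale) by difference in log2 signal (x axis, steps of 0.1 log2 units) from 0 h to 3-9 h on the left and from 3-9 h to 12-21 h on the right, with red lines at the member probes past the threshold. On the left ERRFI1 (-1.69), HBEGF (-1.58) and ERBB3 ILMN_1751346 (1.18) lie in the tails. On the right ERBB3 ILMN_1737993 (-0.38), TGFA (0.48) and ERRFI1 (0.64) lie nearer the middle. The ERBB3 lines of the panels are different probes, and ILMN_1751346 had 0.01 in the step on the right.

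The probes of other genes with the courses most like those of the members were listed as a description, by Pearson r over the 16 arrays, which share sets and a common trend with time. For EGFR ILMN_1696521 these were KRT4 (r = 0.96), TGM5 (0.95) and ATP8B3 (0.95), with 43 probes at r of 0.9 or more. For ERBB3 ILMN_1751346 they were ANKRA2 (0.97), FBXL16 (0.96) and CCDC28A (0.96), with 63 such probes. For TGFA they were UAP1 (0.95), STX3A (0.94, STX3 in RefSeq) and TMEPAI (0.94, PMEPA1 in RefSeq), with 25 such probes, and for BTC KIAA0274 (0.94, FIG4 in RefSeq), RHOBTB3 (0.93) and DBT (0.93), with 5. For ERBB4 the closest were C21orf57 (0.82, YBEY in RefSeq), HDLBP (0.77) and TKTL1 (0.77), and 0 probes reached 0.9.

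Other genes of the same pathway were read from lists of ligands, proteins that release ligands, adaptors, and proteins that degrade or restrain the receptors. Of the 5 other EGF-family ligands, 3 were tested, of which EGF rose by 0.69 ± 0.13 over 45 h (adjusted p = 0.000297), EPGN fell as given above, and NRG2 had 0.60 ± 0.25 (adjusted p = 0.057). NRG3 and NRG4 were detected on 0 arrays. Of the 12 tested probes of 8 genes for ligand release, 5 rose and 2 fell over 45 h, against 26.0% and 21.7% of all tested probes, and 5 did neither. ADAM10, a protease that cuts EGF and betacellulin from the membrane, rose by 1.44 ± 0.25 (adjusted p = 8.62e-05), with signals of 193 to 485 and detection on 15 arrays. RHBDF1, a protein needed for the traffic of ADAM17, rose by 0.55 ± 0.08 (adjusted p = 2.03e-05), and its relative RHBDF2 fell on the probes ILMN_2373062 (-0.46 ± 0.13) and ILMN_1691717 (-0.41 ± 0.12). The other tested RHBDF2 probe, ILMN_1735792, had -0.06 ± 0.26 (adjusted p = 0.88). ADAM15 rose on 2 of its 3 probes, by 0.35 ± 0.11 (adjusted p = 0.0137) and 0.30 ± 0.04 (adjusted p = 1.16e-05), and had 0.12 ± 0.16 on the other. ADAM17, the main protease for TGF-alpha, amphiregulin and HBEGF, had 0.34 ± 0.13 (adjusted p = 0.0348).

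Of the 14 tested probes of 9 adaptor genes, 5 rose and 2 fell over 45 h, against 26.0% and 21.7% of all tested probes, and 7 did neither, so that the share with a trend was near the 47.7% of all probes. GAB2, a scaffold that carries PI3 kinase, rose by 0.82 ± 0.13 (adjusted p = 2.97e-05), and SOS2, an activator of RAS, by 0.61 ± 0.18 (adjusted p = 0.00845). The PI3 kinase subunits PIK3R1, on 1 of its 3 tested probes, and PIK3CA rose by 0.59 ± 0.14 (adjusted p = 0.0016) and 0.59 ± 0.15 (adjusted p = 0.00231). GRB2, the adaptor between these receptors and RAS, fell on ILMN_1748797 (-0.58 ± 0.09, adjusted p = 3.31e-05), while ILMN_1742521 had 0.07 ± 0.12. From 3-9 h to 12-21 h, 6 probes of this list rose, against 14.8% of all probes, in a step where 53.4% of all calls were higher and 25.6% were under median scaling. The median linear change was 0.23 for adaptors and 0.21 for ligand release, beside 0.05 for all tested probes.

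Of the 16 tested probes of 15 genes for receptor ubiquitination and restraint, 5 rose and 1 fell (LRIG3), against 26.0% and 21.7% of all tested probes, and 10 did neither, with a median linear change of 0.10. CBLB, a ubiquitin ligase that marks active receptors for degradation, rose by 1.01 ± 0.12 over 45 h (adjusted p = 1.6e-06). SOCS5, which promotes the breakdown of EGFR, rose by 0.64 ± 0.18 (adjusted p = 0.00723), and SOCS4, on ILMN_2413259, and the phosphatase PTPRK rose by 0.44 ± 0.11 and 0.41 ± 0.11. The other tested SOCS4 probe, ILMN_1753795, was detected on 4 arrays and had 0.03 ± 0.28 (adjusted p = 0.932). From 0 h to 3-9 h, 2 of the 16 probes rose, against 1.14% of all tested probes, and 1 fell, against 1.19%. Those that rose were CBLB (0.72, adjusted p = 0.0444) and LRIG1 (0.65, adjusted p = 0.0235), and the phosphatase PTPN12 fell by 0.57 (adjusted p = 0.00983). PTPN12 then rose by 0.33 from 3-9 h to 12-21 h (adjusted p = 0.00293). ADAM17, GRB2, LRIG1, LRIG3 and PTPN12 were named after their values were seen.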

How the data were processed

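Gene expression in 16 SUM-225 cultures was measured from biotin-labelled cRNA on Illumina bead arrays, 1 per time. The deposited table holds linear signal intensities without background subtraction or normalization, and a deposited detection p-value for each probe and array. The study's methods name the Illumina human Ref8v2 array for time courses of other lines, the labels of these samples name no version, and the scanning software and the genome build were not given in the sources used here. The number of arrays limits the precision.

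Signals were corrected with the normexp model, with negative controls inferred from the detection p-values and an offset of 16, then quantile normalized and converted to log2 (neqc, limma 3.58.1, R 4.3.3). The offset shrinks differences at low signal. The tests covered every probe that 3 or more arrays detected (p under 0.05). A cubic polynomial in hours and, separately, 5 windows of hours as a factor were fitted with lmFit and eBayes with an intensity trend. Tests were two-sided with Benjamini-Hochberg adjustment over all 16110 probes at 0.05. Permutation tests used 100000 resamples. Tested on simulated data for 16110 probes with 200 changed, the fits recovered 76.5% of linear changes of 1 log2 unit (6.1% of calls false), 82.0% of changes of 1.5 from 0 h to 3-9 h (5.2% false) and 79.0% of changes of 1 from 3-9 h to 12-21 h (4.2% false). The simulated noise was independent between arrays and held no differences between sets of 4 arrays. These shares therefore check the code and do not give the share of false calls in the real data.

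The members, gene lists, windows and tests were chosen with earlier results of these data known. All probes of the members are described. Of each pathway list up to 4 genes past the threshold with the largest linear change are named, and for each member gene with a probe past the F-test the brightest such probe is set beside the 3 probes of other genes with the highest Pearson r. No member had a second probe on the array other than EGFR, ERBB3 and NRG1. Alternatives were cyclic loess, median scaling, signals without background correction, an offset of 50, array weights, all probes without a filter, a filter for detection on each of the 16 arrays, a spline with 5 degrees of freedom, a straight line, terms for sets of 4 arrays, and each array left out. Promoters came from the RefSeq table of GRCh38.p14. Plots were made in Python 3.11.15 (matplotlib 3.10.9). A marker gene of another cell type is not reported here.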

Additional observations from a re-analysis of the deposited data

How the results depend on the processing

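No paired analysis was possible because the time points had 1 array each. With the set of 4 arrays as a factor, 0 member probes had a linear trend against 4, and the linear change of TGFA was -0.71 with an adjusted p of 0.60, while 3 steps between the sets left the F-tests of BTC (adjusted p = 0.342), EGFR (0.651), TGFA (0.285) and ERBB4 (0.138) past no threshold. That fit kept ERBB3 ILMN_1751346 (5.84e-05) and gained ERBB3 ILMN_1737993 (0.0489), ERRFI1 (0.0447) and HBEGF (0.012). These terms are correlated with time, and the cause was not tested. With array weights, 6 member probes differed between 0 h and 3-9 h against 3 (2997 of all tested probes against 376), and 5 between 3-9 h and 12-21 h against 3 (7509 against 4461). Under median scaling 2 rose between 12-21 h and 24-33 h against 4 (852 of all tested probes against 1499). When single arrays were left out, the members called ranged from 4 to 6 in the F-test and in the linear trend, from 2 (without 6 h) to 5 (without 3 h, 1788 of all probes) between 0 h and 3-9 h, from 3 to 4 between 3-9 h and 12-21 h, and from 1 (without 12 h) to 4 between 12-21 h and 24-33 h, where 2 were left without the array of 21, 30 or 33 h. Under all alternatives run, 0 members differed between 24-33 h and 36-45 h. The 0 h array could not be left out of the first window difference, which rests on it.

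Median scaling moved the median of all probes from 0.036 to -0.105 for 12-21 h minus 3-9 h, and the share of higher calls from 53.4% to 25.6% there and from 55.8% to 73.7% for the next window difference. For 12-21 h minus 3-9 h ERRFI1 then had 0.39 in place of 0.64. The early differences of ERBB3 ILMN_1751346 (1.05 to 1.43) and ERRFI1 (-1.79 to -1.54) stayed past the threshold under every alternative run for them. Signals near the background limited HBEGF, ERBB4 and the undetected AREG and NRG1.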
